A study of Mus musculus with 22 samples.

Results

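The comparison is between 2 ages of control mice: kidney cortex of male C57BL/6J animals with floxed Crat alleles (fl/fl) and no Cre promoter in their labels, on chow, at 15 months (3 libraries) and at 24 months (5 libraries). The members are 8 of the 22 libraries of the series, chosen by genotype, age and diet word in the sample titles. The other chow libraries came from Pt-CrAT mice, which carry Cre under a Ggt promoter, at 15 months (3) and 24 months (5). The rest of the series came from fl/fl and Pt-CrAT mice at 12 months, with the diet word LFD in their titles. All 22 libraries entered the main edgeR fit, so the other groups also set the spread behind each of its p-values. That deletion targets carnitine acetyltransferase (Crat), which links acetyl-CoA and carnitine in mitochondria, in proximal tubular cells. Messenger RNA was read near its 3' end, and values are CPM (counts scaled to a common library total) after TMM scaling. Libraries are called by their titles, and 8 values in a row are always given in the order Wt15Mchow205, Wt15Mchow225 and Wt15Mchow227 (15 months), then Wt24Mchow145, Wt24Mchow154, Wt24Mchow164, Wt24Mchow165 and Wt24Mchow168 (24 months).

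The ageing kidney is known for a slow loss of tubular and glomerular function, a gain of immune cells and interstitial matrix, and a larger share of cells that have left the cell cycle. The cortex is mostly proximal tubule, which recovers filtered glucose, phosphate, amino acids and proteins and runs on mitochondrial oxidation. The distal convoluted and connecting tubules and the intercalated cells then set the final calcium, chloride and acid content of the urine, and many of these transport genes follow the circadian clock.

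Crat was examined first because it checks the labels. Crat (ENSMUSG00000026853; GRCm38 chromosome 2, 30400471 to 30415813, minus strand) stood at 41.5, 34.3 and 60.0 CPM at 15 months and 43.5, 112, 73.8, 76.8 and 68.1 CPM at 24 months. Wt24Mchow145 lay between the 15-month values, so the groups overlapped. The difference in means of 29.45 CPM gave p = 0.0714 in an exact two-sided permutation test, in which 3 against 5 cannot go below 0.0357. In edgeR the log2 fold change was 0.72 (SE 0.25, adjusted p = 0.115). At 24 months the libraries labelled Pt-CrAT held 38.3, 37.9, 38.9, 28.4 and 37.7 CPM, below all 5 labelled fl/fl, which is the direction of the labels. The 15-month libraries labelled Pt-CrAT held 63.1, 72.6 and 71.8 CPM, above all 3 libraries labelled fl/fl at that age, which goes against the labels. The 15-month animals are therefore called the libraries labelled fl/fl, and the log2 fold change of each gene and the median of each list were also computed with the 15-month libraries labelled Pt-CrAT as the young arm. The strand setting of the counting was not found in the labels or headers, so reads of a gene and of an overlapping gene on the opposite strand cannot be told apart. With an overlapping gene that is itself counted, this applies to Crat (Dolpp1), Dbp (Sphk2), Mgll (Gm26588), Slc5a2 (BC017158), St6galnac5 (Pigk) and Sirt3 (Psmd13 and Ric8a). Opposite-strand genes without counts of their own also overlap Bhlhe41, Cdkn1a, Cx3cr1, F5, Lox, Lrrc17, Ltc4s and Psmd3, and the same limit holds for them. A gene not named here is not shown to be free of it.

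The tissue label was checked against defining markers of nephron segments and vessels. Proximal tubule markers were high in all 8 libraries, with Slc34a1 at 5374 to 7032 CPM and Lrp2 at 618 to 1959 CPM. Umod (531 to 870.0 CPM, thick ascending limb), Slc12a3 (119 to 222 CPM, distal convoluted tubule), Aqp2 (336.5 to 775 CPM, collecting duct) and Pecam1 (64.0 to 84.0 CPM, endothelium) were present in every library. Total counts were 12529663 to 14627262. In a principal component analysis of the 1000 most variable genes, the first component held 71.68% of the variance. Its scores were -16.3, -11.8 and -20.9 at 15 months and -8.43, 29.8, 10.8, 15.6 and 1.179 at 24 months. The ages did not overlap on it, but Wt24Mchow145 and Wt24Mchow154 of the older group lay farther apart than Wt24Mchow145 and any younger one. The labels name no batch, and a table of column totals deposited with the counts covers 12 libraries of 12 and 15 months and none of 24 months, so that age and any batch that follows it cannot be told apart.

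Over all genes, the age difference was moderate and depended on single libraries. edgeR's quasi-likelihood test with Benjamini-Hochberg adjustment (threshold 0.05) called 196 of 15064 genes (1.3%), of which 72 were lower (0.478%) and the rest higher (0.823%) at 24 months. Of these, 62 rose and 25 fell by more than 2-fold, and the median log2 fold change of all genes tested was 0.02. Scaled by library totals alone, the split was 282 higher and 56 lower. Without Wt15Mchow227 the test called 3 genes, and without Wt15Mchow205 it called 4. Without Wt24Mchow145 it called 756, including all 196. Leaving out Wt15Mchow225, Wt24Mchow154, Wt24Mchow164, Wt24Mchow165 or Wt24Mchow168 gave 53, 68, 63, 41 and 246 calls. Lipa and Ltc4s were called in all 8 of these omissions, and 22 genes in at least 6. The labels give 1 animal per title and nothing on litter or day. The edgeR p-values therefore measure only the spread between libraries within groups, estimated over all 6 groups of the series and not the 8 libraries alone.

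**Figure D1:**
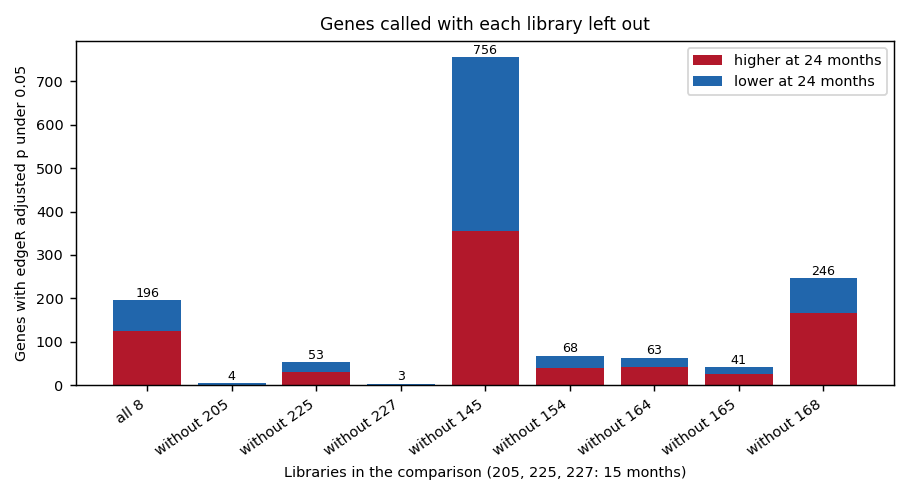
Number of genes with an edgeR adjusted p under 0.05 (vertical axis, from 0) with all 8 libraries and with each library left out in turn (horizontal axis), split into genes higher and lower at 24 months. The count ran from 3 without Wt15Mchow227 to 756 without Wt24Mchow145.

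Of 1166 genes in 49 lists of pathways, nephron segments and cell types, 38 were called (3.26%), spread over 23 lists. Of all 15064 genes tested, 1.3% were called. The lists were chosen with earlier results of these data known, so the higher share among list genes is not an independent result. The highest list medians were those of plasma cell and immunoglobulin genes (log2 fold change 0.99), thin limb, medulla and urothelial genes (0.90), macrophage and myeloid genes (0.71), T and NK cell genes (0.61) and interferon response genes (0.58). The lowest were those of circadian clock genes (-0.46) and of the proximal tubule segments S3 (-0.43) and S1 and S2 (-0.39). The median of 12 lists took the opposite sign with the 15-month libraries labelled Pt-CrAT as the young arm. These were the adipocyte (-0.24), peroxisomal and PPAR alpha (-0.12), mitochondrial fatty acid oxidation (-0.15), mitochondrially encoded (-0.12), hypoxia (0.12), heat shock (0.11), principal cell (0.16), thick ascending limb (0.23), complex I (0.0093), ribosomal protein (0.17), senescence (0.14) and cholesterol lists (0.082). The last 3 also turned with library totals as the scaling (0.0282, 0.0348 and 0.0443). The proximal tubule S3 median came to -0.052 with that young arm. In bulk cortex, fewer cells of a type and less RNA per cell cannot be told apart.

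**Figure D2:**
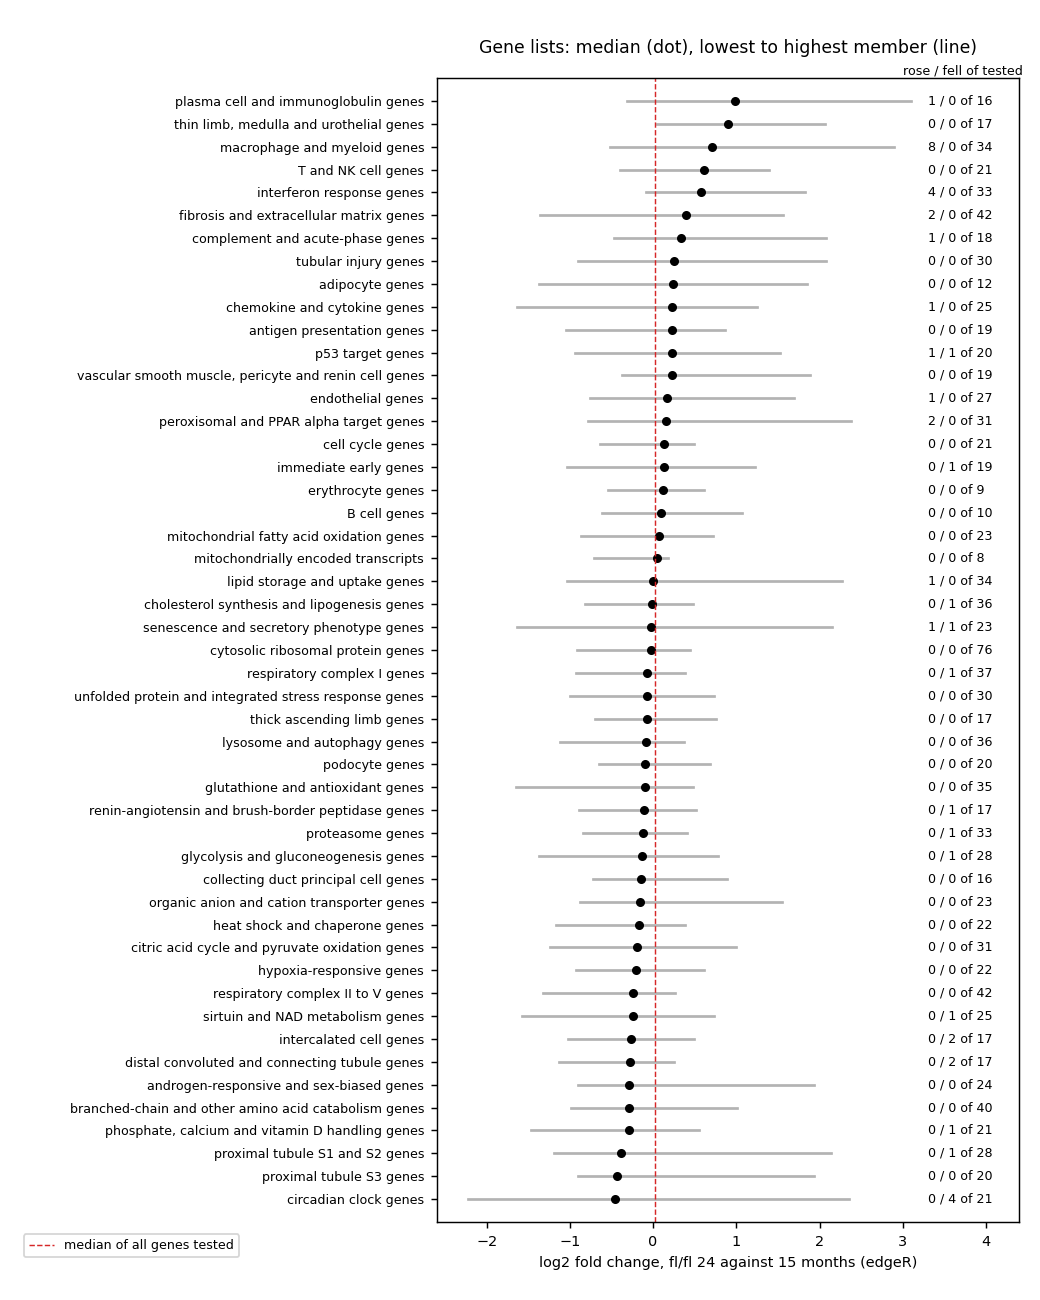
Median log2 fold change at 24 against 15 months (dot) and range from the lowest to the highest member (line) for 49 gene lists, with the number of members that rose and fell of those tested at the right. Immune and interferon lists lie to the right of the median of all genes (dashed line, 0.02) and the clock and proximal tubule lists to its left.

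Markers of myeloid cells were higher in the older cortex. Of 34 macrophage and myeloid genes, 8 rose and none fell, against 0.823% of all genes called higher. The 24-month libraries lay above all 15-month ones for 16 of the 34, against 8.7% of all genes. The summed level of the list was 472 to 517 CPM at 15 months and 611 to 1014 CPM at 24 months, lowest there in Wt24Mchow168. S100a8 (ENSMUSG00000056054; GRCm38 chromosome 3, 90668978 to 90670035), 1 chain of the neutrophil and monocyte protein calprotectin, was at 6.43, 4.60 and 2.54 CPM at 15 months and 22.4, 19.1, 51.6, 65.0 and 11.04 CPM at 24 months. All older libraries lay above all younger ones, but they spread widely, with Wt24Mchow165 and Wt24Mchow164 highest (log2 fold change 2.899, SE 0.66, edgeR adjusted p = 0.0372). S100a9, the partner chain, was at 2.29, 1.44 and 0.999 CPM at 15 months and 8.94, 4.82, 12.1, 13.96 and 4.15 CPM at 24 months (2.47, SE 0.59, edgeR adjusted p = 0.0412). The order of the older libraries was that of S100a8, from Wt24Mchow165 down to Wt24Mchow168.

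Cx3cr1, the fractalkine receptor of resident macrophages, was at 27.3, 21.99 and 18.9 CPM at 15 months and 48.3, 75.3, 56.7, 61.1 and 38.2 CPM at 24 months (log2 fold change 1.30, SE 0.26, edgeR adjusted p = 0.0178). Ctss, the lysosomal protease cathepsin S of antigen-presenting cells, was at 20.96, 18.7 and 15.0 CPM against 38.5, 32.04, 44.4, 43.0 and 24.5 CPM (1.001, SE 0.19, edgeR adjusted p = 0.0145). For both genes the groups did not overlap and Wt24Mchow168 was the lowest of the older animals. Fcer1g, the signalling chain shared by Fc receptors, rose 2.32-fold, Aif1, the macrophage protein Iba1, 2.19-fold and Laptm5, a lysosomal protein of blood cells, 1.78-fold. Lyz1 also rose, from 0.306, 0 and 0.538 CPM to 2.65, 0.933, 1.06, 1.93 and 1.41 CPM. Its value rests on few reads and is uncertain, because Lyz1 and Lyz2 are near-identical lysozyme genes. Lyz2 itself was at 30.4 to 39.9 CPM and 40.3 to 76.4 CPM and did not pass (edgeR adjusted p = 0.171). The classical macrophage markers Adgre1 (log2 fold change 0.68, edgeR adjusted p = 0.262), Cd68 (0.35, edgeR adjusted p = 0.456) and Csf1r (0.39, edgeR adjusted p = 0.279) did not pass either. Among 25 chemokine and cytokine genes only the macrophage chemokine Ccl6 passed, at 7.65, 4.19 and 2.92 CPM and then 7.75, 13.6, 15.6, 11.5 and 9.98 CPM (1.25, SE 0.28, edgeR adjusted p = 0.0275). Wt24Mchow145 was barely above Wt15Mchow205 for it.

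Plasma cell genes had the highest list median, 0.99, with 13 of 16 members above 0, but a single call, against 0.823% of all genes called higher. Mzb1, a chaperone of antibody assembly in plasma and marginal zone B cells, was at 7.57, 6.25 and 6.92 CPM at 15 months and 12.5, 16.8, 17.8, 17.8 and 10.9 CPM at 24 months (log2 fold change 1.13, SE 0.23, edgeR adjusted p = 0.0178). The groups did not overlap, and Wt24Mchow168 was again the lowest older library. Igkc, the kappa light chain constant region, was at 53.5, 49.9 and 60.5 CPM and at 172, 116, 252, 188 and 57.2 CPM (1.52, SE 0.48, edgeR adjusted p = 0.0965). Wt24Mchow168 stayed within the younger range, and the other older libraries were above it. Jchain was at 14.8, 10.3 and 16.6 CPM and at 33.7, 13.1, 48.9, 43.5 and 12.9 CPM (1.13, SE 0.53, edgeR adjusted p = 0.224). It overlapped between ages, with Wt24Mchow154 and Wt24Mchow168 within the younger range, and did not pass. Ighg2c, an IgG heavy chain, was at 1.31 to 1.69 CPM in the younger libraries and 7.62, 5.44, 41.5, 3.78 and 8.72 CPM in the older ones (3.10, SE 0.84, edgeR adjusted p = 0.0663), and reads of related immunoglobulin genes may be shared. The summed plasma cell list reached at most 184.4 CPM at 15 months and was 192 to 660.1 CPM at 24 months. None of 21 T and NK cell genes and none of 10 B cell genes passed, with medians of 0.61 and 0.10.

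The 10 calls on myeloid genes, Ccl6 and Mzb1 held without Wt24Mchow145 or Wt24Mchow168. Only 3 of the 10 held without Wt24Mchow154, 3 without Wt24Mchow164, 2 without Wt24Mchow165, 1 without Wt15Mchow205 and 0 without Wt15Mchow225 or Wt15Mchow227, with adjusted p of 0.051 to 0.219 for those lost. With the 15-month libraries labelled Pt-CrAT as the young arm, all 10 stayed higher at 24 months, and Lyz1 and Mzb1 passed.

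Interferon response genes gave 4 rises and no fall among 33 tested, against 0.823% of all genes called higher. The log2 fold change was above 0 in 31, and in 14 the older libraries lay above all younger ones, against 8.7% of all genes. Their summed level was 351 to 424 CPM at 15 months and 490 to 635 CPM at 24 months. A promoter element shared by many interferon targets, the repeat of GAAANN directly followed by GAAA that is bound by interferon regulatory factors, was sought on both strands in the 250 bases before each RefSeq gene start (GRCm38.p6). It was present in 13 of the 24 list members with a window and in 2.98% of 32851 such windows. The windows of 2 called genes are shown because they hold it, with the repeat in capitals: Ifit3 at chr19:34583279-34583528 (plus strand, matches starting 156 and 122 bases before the start) and Trim30a at chr7:104465194-104465443 (minus strand, 36 bases before). Both are printed 5′ to 3′ in the direction of the gene.
Ifit3: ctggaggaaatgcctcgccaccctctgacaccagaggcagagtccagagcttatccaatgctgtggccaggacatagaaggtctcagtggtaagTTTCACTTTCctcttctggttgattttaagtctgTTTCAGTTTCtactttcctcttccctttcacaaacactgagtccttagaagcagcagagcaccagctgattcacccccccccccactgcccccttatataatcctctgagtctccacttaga
Trim30a: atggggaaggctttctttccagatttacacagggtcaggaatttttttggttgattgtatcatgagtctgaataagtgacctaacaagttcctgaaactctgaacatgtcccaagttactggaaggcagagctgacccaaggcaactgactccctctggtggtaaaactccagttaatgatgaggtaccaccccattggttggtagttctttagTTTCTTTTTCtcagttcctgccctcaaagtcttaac
The window of Ifi44 did not hold these letters.

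Ifit3, which binds viral RNA complexes, was at 11.5, 13.3 and 10.4 CPM at 15 months and 19.3, 29.0, 21.3, 18.04 and 16.1 CPM at 24 months (log2 fold change 0.82, SE 0.18, edgeR adjusted p = 0.0275). Trim30a, an inhibitor of innate signalling, was at 4.90, 6.87 and 4.38 CPM and at 9.92, 9.41, 12.9, 10.3 and 9.07 CPM (0.93, SE 0.23, edgeR adjusted p = 0.041). In both genes every older library lay above every younger one. Parp14, an ADP-ribosyltransferase induced by interferon, was at 14.5, 15.1 and 10.8 CPM and at 21.6, 27.8, 27.2, 29.3 and 20.1 CPM (0.90, SE 0.19, edgeR adjusted p = 0.0221), again without overlap. Ifi44 was at 12.4, 13.9 and 10.99 CPM and at 19.4, 24.8, 25.3, 24.2 and 13.8 CPM (0.79, SE 0.18, edgeR adjusted p = 0.0311), and Wt24Mchow168 fell within the younger range. Several other members narrowly missed the threshold: the transcription factor subunit Irf9 (0.55, edgeR adjusted p = 0.0582), the antiviral membrane protein Ifitm3 (0.81, edgeR adjusted p = 0.0703) and Oas2 (1.82, edgeR adjusted p = 0.071). The widely used marker Isg15 overlapped between ages, at 9.48, 9.07 and 5.15 CPM against 14.2, 6.69, 11.2, 5.24 and 8.72 CPM (0.22, edgeR adjusted p = 0.638).

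Complement C3, the central component of the cascade, was the single call among 18 complement and acute-phase genes, against 0.823% of all genes called higher. C3 (ENSMUSG00000024164; GRCm38 chromosome 17, 57203970 to 57228136) was at 14.9, 11.9 and 9.22 CPM at 15 months and 22.2, 26.0, 29.3, 26.1 and 26.2 CPM at 24 months. The older libraries were tightly grouped above all younger ones, 2.16-fold higher (log2 fold change 1.11, SE 0.22, edgeR adjusted p = 0.0178). C4b, whose reads may be shared with its near-identical copy C4a, was at 25.3, 27.8 and 25.3 CPM and at 27.6, 51.9, 37.6, 36.1 and 27.4 CPM and did not pass (0.47, edgeR adjusted p = 0.148). Of C3 and the 4 interferon genes, all 5 held without Wt24Mchow145 or Wt24Mchow168, C3 alone held without Wt24Mchow154, Wt24Mchow164 or Wt24Mchow165, and none held without Wt15Mchow205, Wt15Mchow225 or Wt15Mchow227 (adjusted p 0.0508 to 0.234 for those lost). With the other young arm Trim30a passed, and Ifit3 had a log2 fold change of 0.14 (edgeR adjusted p = 0.784).

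Cdkn1a, which encodes the cell cycle inhibitor p21, rose in every older library. Cdkn1a (ENSMUSG00000023067; GRCm38 chromosome 17, 29090976 to 29100727) was at 3.75, 4.05 and 3.38 CPM at 15 months and 9.29, 10.03, 14.8, 10.9 and 8.93 CPM at 24 months. The lowest older library was more than 2-fold above the highest younger one (log2 fold change 1.53, SE 0.26, edgeR adjusted p = 0.0143). Around it, among 23 senescence and secretory genes Cdkn1a rose and Igfbp4 fell, with a median of -0.02, and among 20 p53 targets Cdkn1a rose and Pmaip1 fell, with a median of 0.22. Igfbp4, a secreted binding protein of insulin-like growth factors, was at 1054, 929.5 and 973 CPM and at 620.5, 517, 585, 523 and 612 CPM (-0.79, SE 0.14, edgeR adjusted p = 0.0145), without overlap. Pmaip1, the apoptosis protein Noxa, was at 5.74, 6.46 and 6.84 CPM and at 5.03, 2.41, 3.92, 2.24 and 2.95 CPM (-0.93, SE 0.23, edgeR adjusted p = 0.041). Cdkn2a, the p16 and Arf locus used as a senescence marker, was near the detection limit at 0.306, 0.206 and 0 CPM and at 0.349, 0.544, 0.679, 0.694 and 0.844 CPM (1.81, SE 0.66, edgeR adjusted p = 0.13). Gdf15, a stress-induced cytokine, was 1.84-fold higher without overlap and missed the threshold (edgeR adjusted p = 0.0513).

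None of 30 tubular injury genes passed, with a median of 0.25. Their summed level was 962 to 997 CPM at 15 months and 1083 to 1207 CPM at 24 months, without overlap. The older libraries lay above all younger ones in 6 of the 30, against 8.7% of all genes. They lay below in 2, against 8.26%. Havcr1, the proximal tubule injury marker KIM-1, was at 0.459, 1.85 and 1.15 CPM at 15 months and 6.43, 0.6998, 3.54, 3.78 and 8.72 CPM at 24 months. Wt24Mchow154 was within the younger range and Wt24Mchow168 was the highest (log2 fold change 1.99, SE 0.62, edgeR adjusted p = 0.0938). Lcn2, the injury and acute-phase protein NGAL, was at 0.153, 0.687 and 0.461 CPM and at 1.68, 2.18, 1.36, 2.70 and 1.55 CPM (2.08, SE 0.59, edgeR adjusted p = 0.0692), without overlap but at few reads. Among 21 cell cycle genes none passed and the median was 0.13. Cdkn1a and Igfbp4 held in 6 of 8 omissions and were lost without Wt15Mchow205 or Wt15Mchow227, while Pmaip1 held only without Wt24Mchow145 (adjusted p 0.0575 to 0.196 for those lost). Against the other young arm, Igfbp4 passed, and Cdkn1a had a log2 fold change of 0.86 (edgeR adjusted p = 0.0849).

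**Figure D3:**
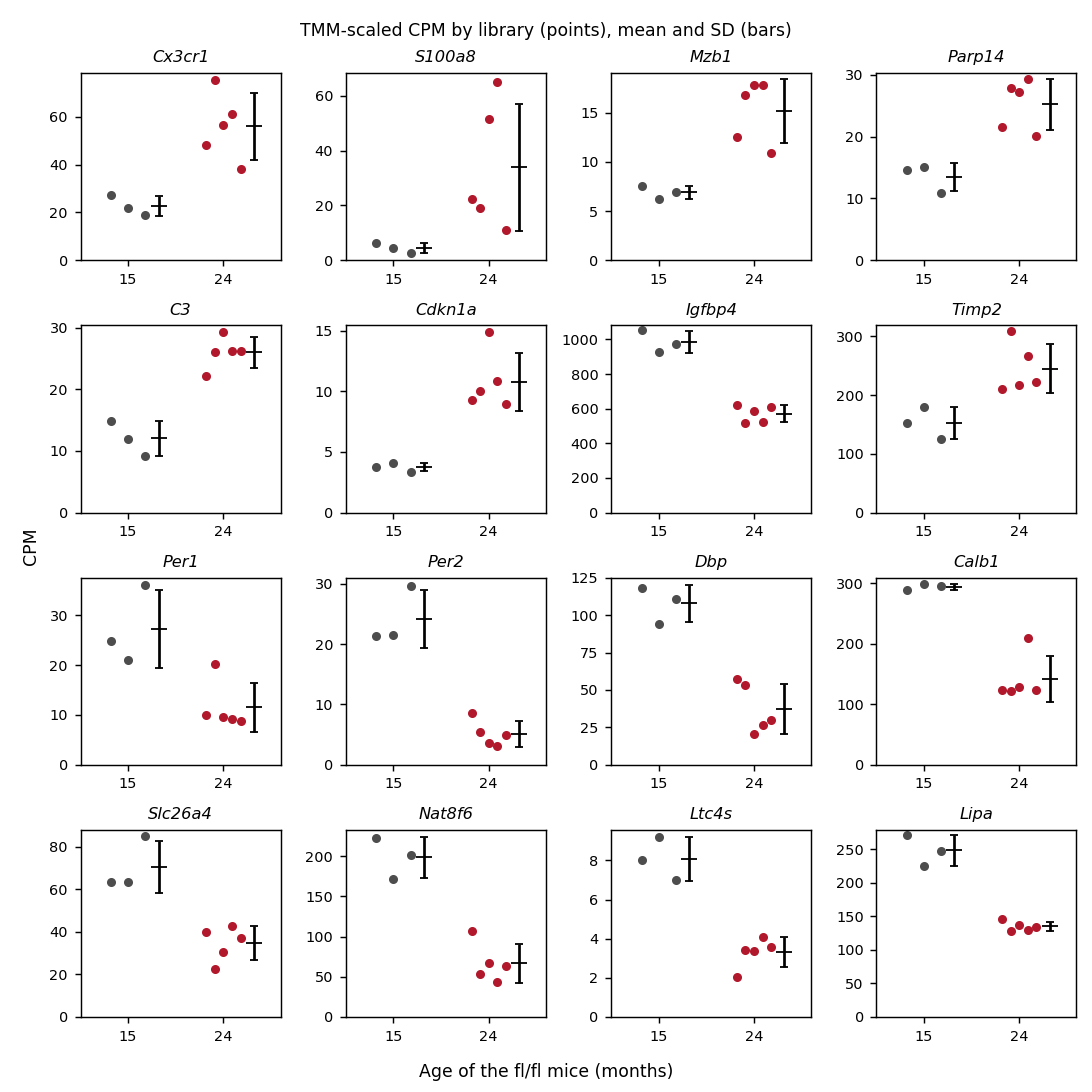
CPM of 16 genes in each fl/fl library at 15 months (grey, n = 3) and 24 months (red, n = 5), with the group mean and SD at the right of each set and vertical axes from 0. The 24-month points of Cdkn1a lie between 8.93 and 14.8 CPM, above the highest 15-month point at 4.05 CPM, and the points of Lipa lie at 146.1 CPM or below against 225.3 CPM or above.

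Genes of the matrix list were mostly higher, with few single calls. Of 42 fibrosis and extracellular matrix genes, 2 rose and none fell, against 0.823% of all genes called higher. The log2 fold change was above 0 in 37, with a median of 0.39 against 0.02 for all genes tested. In 13 of the 42 the older libraries lay above all younger ones, against 8.7% of all genes. The summed level was 3019 to 3607 CPM at 15 months and 3878 to 4380 CPM at 24 months, of which Timp3 gave 42.8% over the 8 libraries. Timp2, an inhibitor of matrix metalloproteinases, was at 153, 179 and 125 CPM and at 209.7, 309, 217, 267 and 223 CPM (log2 fold change 0.69, SE 0.16, edgeR adjusted p = 0.0333). Lox, the enzyme that crosslinks collagen, was at 1.68, 2.54 and 0.845 CPM and at 4.75, 8.16, 5.73, 4.01 and 2.60 CPM (1.56, SE 0.39, edgeR adjusted p = 0.0475). Neither gene overlapped between ages, although Wt24Mchow168 was barely above Wt15Mchow225 for Lox. The main fibrillar collagens did not pass: Col1a1 had a log2 fold change of 0.75 (edgeR adjusted p = 0.115) and Col3a1 of 0.18 (edgeR adjusted p = 0.814), both with overlap.

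Other genes of matrix, vessel wall or cell surface were called that are in no list here, and they are described together only after their values were seen. Lrrc17, Foxs1 and St6galnac5 were among the 12 largest called rises with a mean of at least 5 CPM. Lrrc17, a secreted leucine-rich repeat protein, was at 20.8, 18.2 and 13.1 CPM at 15 months and 69.6, 91.3, 72.6, 57.8 and 57.7 CPM at 24 months, a 4.02-fold rise with a wide gap between the ages (log2 fold change 2.01, SE 0.44, edgeR adjusted p = 0.0311). Foxs1, a forkhead factor of vascular mural cells, was at 3.06, 5.77 and 3.69 CPM and at 12.1, 10.3, 12.2, 17.3 and 11.7 CPM (1.599, SE 0.32, edgeR adjusted p = 0.0179). St6galnac5, a sialyltransferase, was at 1.91, 2.75 and 2.77 CPM and at 7.06, 11.9, 5.05, 6.63 and 3.87 CPM (1.47, SE 0.30, edgeR adjusted p = 0.0178). In all 3 the ages were separate. Serpine2, a secreted protease inhibitor also known as nexin 1, rose 1.87-fold, from 52.2, 64.0 and 58.9 CPM to 97.0, 108, 104, 128 and 109 CPM (edgeR adjusted p = 0.0161). Col27a1, a minor fibrillar collagen, went the other way, from 52.2, 48.9 and 64.1 CPM to 24.9, 25.4, 33.0, 29.7 and 33.7 CPM (-0.91, SE 0.16, edgeR adjusted p = 0.0143). Myoc was also lower, at 6.04, 4.67 and 0.23 CPM and at 0.349, 0.467, 0, 0.231 and 0.211 CPM. Its log2 fold change was -3.82 (SE 0.78, edgeR adjusted p = 0.0215), but Wt15Mchow227 lay within the older range. The Myoc call held in 4 of 8 omissions and with the other young arm (-4.46, edgeR adjusted p = 0.00818).

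Of 27 endothelial genes 1 rose, the blood clotting carrier Vwf, at 0.230, 0.893 and 0.692 CPM and then 1.96, 2.41, 1.58, 2.005 and 2.04 CPM (log2 fold change 1.70, SE 0.41, edgeR adjusted p = 0.0388). The endothelial list as a whole had a median of 0.17, and 0.823% of all genes were called higher. None of 19 smooth muscle, pericyte and renin cell genes passed. The smooth muscle actin Acta2 was at 22.1, 27.0 and 18.3 CPM and at 39.8, 45.9, 32.4, 38.8 and 29.0 CPM (0.72, SE 0.19, edgeR adjusted p = 0.0593), without overlap. The calls of Timp2, Lox, Vwf, Lrrc17, Foxs1, St6galnac5, Serpine2 and Col27a1, 8 in all, held without Wt24Mchow145 or Wt24Mchow168, 4 without Wt24Mchow154, 4 without Wt24Mchow164, 3 without Wt24Mchow165, 3 without Wt15Mchow225 and none without Wt15Mchow205 or Wt15Mchow227 (adjusted p 0.0514 to 0.248 for those lost). Set against the other young arm, 5 of 8 passed, and Lrrc17 (1.36, edgeR adjusted p = 0.107), Lox (1.19, edgeR adjusted p = 0.112) and Vwf (1.40, edgeR adjusted p = 0.0743) did not.

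Circadian clock genes had the lowest list median, -0.46. The clock is a loop in which CLOCK or NPAS2 with BMAL1 (Arntl) switches on the repressors Per and Cry and output factors such as Dbp through the E-box CACGTG. Of 21 genes 4 fell and none rose, against 0.478% of all genes called lower, and 17 of 21 had an unadjusted p under 0.05, against 21.7% of all genes. In 9 of 21 the older libraries lay below all younger ones, against 8.26% of all genes. The labels give no hour of collection. The E-box was sought, on both strands, in the same windows of 250 bases. It was found in 5 of the 17 list members with a window (Per1, Cry1, Tef, Ciart and Bhlhe41) and in 6.02% of all windows. The windows of the 2 called genes that hold it are shown 5′ to 3′, with the E-box in capitals: Per1 at chr11:69098699-69098948 (plus strand, starting 166 bases before the RefSeq start) and Bhlhe41 at chr6:145865421-145865670 (minus strand, 153 bases before).
Per1: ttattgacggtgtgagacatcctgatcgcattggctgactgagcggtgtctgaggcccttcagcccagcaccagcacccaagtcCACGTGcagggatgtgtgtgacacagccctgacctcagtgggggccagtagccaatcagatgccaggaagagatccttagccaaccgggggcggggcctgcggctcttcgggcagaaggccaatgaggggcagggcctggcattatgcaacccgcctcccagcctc
Bhlhe41: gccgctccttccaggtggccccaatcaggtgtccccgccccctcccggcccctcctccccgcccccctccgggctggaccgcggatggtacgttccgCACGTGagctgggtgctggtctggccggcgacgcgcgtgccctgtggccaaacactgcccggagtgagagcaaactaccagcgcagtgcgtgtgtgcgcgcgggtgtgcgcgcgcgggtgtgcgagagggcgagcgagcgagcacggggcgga
The window of Dbp did not hold these letters.

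Per2, a core repressor, was at 21.3, 21.5 and 29.7 CPM at 15 months and 8.59, 5.37, 3.62, 3.16 and 4.92 CPM at 24 months. All older values lay below all younger ones, a 4.69-fold fall (log2 fold change -2.23, SE 0.53, edgeR adjusted p = 0.0427). Per1, its partner, was at 24.8, 21.1 and 36.1 CPM and at 9.99, 20.3, 9.58, 9.10 and 8.72 CPM (-1.25, SE 0.27, edgeR adjusted p = 0.0238). Wt24Mchow154 came close to the younger animals for Per1 but not for Per2. Dbp, an output transcription factor, was at 118, 94.4 and 111 CPM and at 57.1, 53.6, 20.6, 26.6 and 29.6 CPM (-1.52, SE 0.35, edgeR adjusted p = 0.0357). Bhlhe41, a repressor also called DEC2, was at 6.502, 5.29 and 8.38 CPM and at 3.84, 3.58, 1.36, 2.70 and 1.48 CPM (-1.37, SE 0.35, edgeR adjusted p = 0.0475). Both had their lowest values in Wt24Mchow164 and no overlap between ages.

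The members with the highest values were on the positive limb of the loop. Npas2 was at 0.306, 0.344 and 0.231 CPM at 15 months and 1.33, 0.311, 1.96, 2.08 and 2.04 CPM at 24 months (log2 fold change 2.36, SE 0.71, edgeR adjusted p = 0.0796). Arntl was at 0.230, 0.206 and 0.231 CPM and at 1.19, 0.155, 1.21, 0.463 and 1.05 CPM (1.85, SE 0.75, edgeR adjusted p = 0.163). Wt24Mchow154 was at the level of the younger animals for both, and neither gene passed. Nr1d1, the repressor REV-ERB alpha, was at 37.2, 26.0 and 15.2 CPM and at 34.4, 58.3, 35.5, 31.7 and 36.1 CPM (0.58, edgeR adjusted p = 0.216). Wt24Mchow154 also had the highest Nr1d1 value of the 8.

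Tsc22d3, a glucocorticoid-induced gene also called GILZ, was at 43.4, 32.3 and 55.9 CPM and at 26.1, 22.9, 17.3, 19.5 and 24.0 CPM (log2 fold change -0.9957, SE 0.21, edgeR adjusted p = 0.0217). Ier3, the single call among 19 immediate early genes, which respond to handling within minutes, was at 142, 219 and 134.7 CPM and at 81.4, 109.9, 58.4, 71.95 and 88.0 CPM (-1.01, SE 0.23, edgeR adjusted p = 0.0287). The immediate early list had a median of 0.13, and 0.478% of all genes were called lower. The 6 calls of the clock genes, Tsc22d3 and Ier3 held without Wt24Mchow145, 4 held without Wt24Mchow154, 3 without Wt24Mchow168, 2 without Wt15Mchow225 and none without Wt15Mchow205, Wt15Mchow227, Wt24Mchow164 or Wt24Mchow165 (adjusted p 0.0557 to 0.244 for those lost). Under the other young arm, Per1 (-1.14, edgeR adjusted p = 0.0344) and Dbp passed, and Per2 (-1.48, edgeR adjusted p = 0.17) and Bhlhe41 (-1.07, edgeR adjusted p = 0.12) did not.

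Of 17 distal convoluted and connecting tubule genes, 2 fell, a calcium buffer and a protease, and none rose, against 0.478% of all genes called lower. The log2 fold change was below 0 in 15 of the 17. Calb1 (ENSMUSG00000028222; GRCm38 chromosome 4, 15881264 to 15908064) encodes calbindin, the calcium buffer of the calcium-reabsorbing distal cells. It was at 289, 299 and 296 CPM at 15 months and 122.9, 122.8, 129.5, 209 and 124.3 CPM at 24 months. Wt24Mchow165 stood apart from 4 nearly equal older libraries, and all 5 lay below the younger ones (log2 fold change -1.06, SE 0.20, edgeR adjusted p = 0.0145). Klk1, the urinary protease kallikrein, was at 1139, 1278 and 1820 CPM and at 833, 568, 726, 873 and 906 CPM (-0.85, SE 0.20, edgeR adjusted p = 0.0333), with its near-identical relatives as a possible source of shared reads. Slc12a3, the thiazide-sensitive salt transporter that marks the distal convoluted tubule, was at 222, 216 and 208 CPM and at 119, 141, 172, 174 and 144 CPM (-0.52, SE 0.14, edgeR adjusted p = 0.0557). It was without overlap but narrowly missed the threshold.

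Of 17 genes of intercalated cells, which secrete acid or bicarbonate, 2 fell and none rose, against 0.478% of all genes called lower. In 5 of the 17 the older libraries lay below all younger ones, against 8.26% of all genes. Slc26a4, the chloride and bicarbonate exchanger pendrin, was at 63.3, 63.5 and 84.8 CPM and at 39.8, 22.7, 30.6, 42.8 and 37.3 CPM (log2 fold change -1.03, SE 0.23, edgeR adjusted p = 0.0274). Rhcg, an ammonia channel, was at 59.0, 77.0 and 103 CPM and at 40.8, 44.1, 44.4, 47.3 and 45.5 CPM (-0.84, SE 0.19, edgeR adjusted p = 0.0311). Both were without overlap, and Wt15Mchow227 was the highest of the 8 in both. The summed level of the list did not separate the ages, at 782.5 to 882 CPM and 715 to 922 CPM. No principal cell gene (of 16) and no thick ascending limb gene (of 17) passed, with medians of -0.14 and -0.08.

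In the proximal tubule, 20 of 28 S1 and S2 genes and 15 of 20 S3 genes had log2 fold changes below 0. The share of all genes below 0 was not computed, and the median of all genes tested was 0.02. Only 1 gene passed, against 0.478% of all genes called lower. Slc5a2, the glucose transporter SGLT2 of the first segment, was at 264, 298 and 328.1 CPM at 15 months and 176, 115, 144.7, 189 and 224 CPM at 24 months, without overlap (log2 fold change -0.80, SE 0.18, edgeR adjusted p = 0.0311). Lrp2, the endocytic receptor megalin, was at 1697, 1503 and 1959 CPM and at 1511, 618, 884, 674 and 1022 CPM, and Wt24Mchow145 lay within the younger range (-0.87, SE 0.25, edgeR adjusted p = 0.0703). Slc34a1, the main phosphate transporter, differed little, at 7032, 6274 and 6913 CPM against 5374, 5911, 5443, 5740 and 6391 CPM (-0.22, SE 0.17, edgeR adjusted p = 0.438). The androgen-regulated Kap had a log2 fold change of 0.03 (SE 0.46, edgeR adjusted p = 0.982), and of -0.20 with the other young arm. Kl, the ageing-related hormone receptor klotho of distal and proximal tubule, was at 88.6, 68.5 and 71.7 CPM and at 62.2, 44.3, 59.6, 54.9 and 64.6 CPM (-0.42, SE 0.19, edgeR adjusted p = 0.211).

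Of the 5 calls on nephron segments, all held without Wt24Mchow145 or Wt24Mchow168, Calb1 and Slc26a4 without Wt24Mchow165, Calb1 alone without Wt15Mchow225, Wt24Mchow154 or Wt24Mchow164, and none without Wt15Mchow205 or Wt15Mchow227 (adjusted p 0.0575 to 0.248 for those lost). With the other young arm Slc5a2 passed, and Calb1 had a log2 fold change of -0.50 (edgeR adjusted p = 0.21). Markers of deeper or neighbouring tissue were measured beside these: none of 17 thin limb, medulla and urothelial genes passed, while all 17 had a log2 fold change above 0 and their summed level was 1185 to 1618 CPM at 15 months and 1379 to 2025 CPM at 24 months. Aqp1, a water channel that the proximal tubule also makes, gave 83.2% of that sum over the 8 libraries. Upk1a, a urothelial plaque protein, was at 4.82, 5.36 and 5.69 CPM and at 11.6, 31.0, 6.26, 10.1 and 14.1 CPM (1.46, SE 0.39, edgeR adjusted p = 0.0624). The part of these cells in the tubule results was not tested.

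Several enzymes that conjugate, oxidise or hydrolyse small molecules were called, in both directions; they are grouped here after their values were seen and form no list. Nat8f6 and Nat8f5, of a kidney and liver family of N-acetyltransferases on chromosome 6, were among the 12 largest called falls with a mean of at least 5 CPM. Nat8f6 (GRCm38 chromosome 6, 85808024 to 85820954) was at 222, 172 and 201 CPM at 15 months and 107, 53.7, 67.3, 43.1 and 63.4 CPM at 24 months, 2.97-fold lower (log2 fold change -1.57, SE 0.27, edgeR adjusted p = 0.0145). Nat8f5 (chromosome 6, 85817218 to 85820972) was at 14.3, 7.35 and 15.1 CPM and at 5.03, 1.87, 1.81, 2.85 and 2.60 CPM, 4.30-fold lower (-2.10, SE 0.38, edgeR adjusted p = 0.0145). In both, Wt24Mchow145 was the highest of the older animals and the groups stayed apart. The models of the 2 genes overlap on the same strand, so they are not independent and the split of reads between them is uncertain. Nat8f3 fell 1.96-fold (edgeR adjusted p = 0.0191), while the more abundant Nat8f1 at 1167 to 2072 CPM (-0.24, edgeR adjusted p = 0.578) and Nat8, which acetylates cysteine conjugates, at 284 to 406 CPM (-0.23, edgeR adjusted p = 0.295) did not pass.

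Ltc4s, the leukotriene C4 synthase that joins glutathione to leukotriene A4, was at 8.03, 9.21 and 6.99 CPM and at 2.03, 3.42, 3.39, 4.09 and 3.59 CPM. The highest older value was well below the lowest younger one, a 2.45-fold fall that held in all 8 omissions (log2 fold change -1.29, SE 0.20, edgeR adjusted p = 0.0104). The carboxylesterases Ces2b and Ces2g, which cleave esters of drugs and lipids, fell 5.22-fold and 3.12-fold. Ces2b was at 6.58, 6.12 and 5.30 CPM and at 2.24, 0.6998, 0.829, 0.771 and 1.12 CPM, with Wt24Mchow145 the highest older library (-2.38, SE 0.51, edgeR adjusted p = 0.0251).

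Retinaldehyde dehydrogenases rose. Aldh1a1 was at 13.6, 12.2 and 20.1 CPM at 15 months and 29.0, 52.95, 86.3, 50.4 and 37.9 CPM at 24 months (log2 fold change 1.75, SE 0.33, edgeR adjusted p = 0.0154). Aldh1a7, its rodent-specific near copy beside it on chromosome 19, was at 21.6, 16.9 and 19.2 CPM and at 36.0, 46.6, 60.0, 48.0 and 36.4 CPM (1.24, SE 0.23, edgeR adjusted p = 0.0145). Wt24Mchow164 was the highest in both, and reads may be shared between the copies. Aldh1a2, on another chromosome, was at 0.994, 0.962 and 0.922 CPM and at 2.79, 2.25, 3.32, 2.47 and 2.81 CPM (1.501, SE 0.29, edgeR adjusted p = 0.0161), without overlap. Of the 9 calls on these enzymes, 9 held without Wt24Mchow145 or Wt24Mchow168, 7 without Wt24Mchow154, 6 without Wt24Mchow164, 6 without Wt24Mchow165, 5 without Wt15Mchow225 and Ltc4s alone without Wt15Mchow205 or Wt15Mchow227 (adjusted p 0.0537 to 0.156 for those lost). Against the other young arm, 4 passed (Nat8f6, Nat8f3, Aldh1a1 and Aldh1a2), and Ltc4s had a log2 fold change of -0.69 (edgeR adjusted p = 0.0896).

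Lipa had the smallest p of all 15064 genes. Lipa (ENSMUSG00000024781; GRCm38 chromosome 19, 34492318 to 34527474) encodes lysosomal acid lipase, which frees fatty acids and cholesterol from esters taken up into lysosomes. It was at 272, 225.3 and 248 CPM at 15 months and 146.1, 129, 137, 129.6 and 134 CPM at 24 months. The older libraries were nearly equal and all far below the younger ones, 1.84-fold lower (log2 fold change -0.88, SE 0.12, edgeR adjusted p = 0.00159), and the call held in all 8 omissions and with the other young arm (-0.96, edgeR adjusted p = 0.000337). Lipa is in no list here, and none of 36 lysosome and autophagy genes passed (13 above 0, median -0.09).

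Fatty acid genes gave 3 further rises. Cyp4a10, an omega-hydroxylase of fatty acids and a PPAR alpha target with near-identical relatives, was at 72.7, 80.4 and 110.5 CPM and at 123.9, 311, 285, 206 and 179 CPM (log2 fold change 1.33, SE 0.32, edgeR adjusted p = 0.041). Acot1, a cytosolic acyl-CoA thioesterase, was at 69.5, 63.4 and 84.4 CPM and at 109.5, 131, 186, 121 and 126 CPM (0.89, SE 0.20, edgeR adjusted p = 0.0294). Mgll, the monoacylglycerol lipase, was at 93.2, 91.0 and 97.1 CPM and at 125, 268, 178, 194 and 134 CPM (0.94, SE 0.20, edgeR adjusted p = 0.0255). No older library overlapped the younger ones for these 3 genes, and Wt24Mchow145 was the lowest older library for each. They were the calls among 31 peroxisomal and PPAR alpha target genes (2 rose, median 0.16) and 34 lipid storage and uptake genes (1 rose). Of all genes, 0.823% were called higher and 0.478% lower. In the cholesterol and lipogenesis list 1 of 36 fell, the sterol desaturase Sc5d, from 112, 87.5 and 70.0 CPM to 65.7, 45.6, 56.8, 43.7 and 56.2 CPM (-0.74, SE 0.17, edgeR adjusted p = 0.0311). Apart from Lipa, these 5 lipid calls held only without Wt24Mchow145 or Wt24Mchow168 (adjusted p 0.0539 to 0.156 for those lost). Set against the other young arm, Lipa and Sc5d passed, and Mgll had a log2 fold change of 0.38 (edgeR adjusted p = 0.368).

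Most nuclear genes of the respiratory chain and citric acid cycle had values below 0, with few calls, against 0.478% of all genes called lower. Among 37 genes of respiratory complex I, 1 fell, Ndufa8, at 158, 164.5 and 209.9 CPM and then 75.2 CPM in Wt24Mchow154 to 141 CPM in Wt24Mchow145, without overlap (log2 fold change -0.66, SE 0.17, edgeR adjusted p = 0.0455). None of 42 genes of complexes II to V passed (30 below 0, median -0.24), and none of 31 citric acid cycle genes (24 below 0, median -0.19), 23 fatty acid oxidation genes (median 0.07) or 40 amino acid catabolism genes (31 below 0, median -0.29). Mitochondrially encoded transcripts took 5.27% to 5.45% of counts at 15 months and 4.67% to 6.34% at 24 months. The succinate dehydrogenase subunit Sdhc was at 264, 288 and 445 CPM and at 245, 59.4, 132, 96.5 and 167.8 CPM (-1.24, SE 0.39, edgeR adjusted p = 0.0981). It was highest in Wt15Mchow227 and lowest in Wt24Mchow154, which also lie at the ends of the first principal component. The same libraries were highest and lowest for Lrp2 and for Hadh, a fatty acid oxidation enzyme (-0.87, edgeR adjusted p = 0.0774).

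Ak4, a mitochondrial adenylate kinase, fell most clearly, from 325, 314 and 369.6 CPM to 206, 110.3, 120.2, 113 and 149 CPM (log2 fold change -1.27, SE 0.24, edgeR adjusted p = 0.0161). Slc25a42, the mitochondrial carrier that imports coenzyme A, was at 11.7, 9.41 and 10.5 CPM and at 6.36, 2.96, 4.15, 3.55 and 4.22 CPM (-1.31, SE 0.31, edgeR adjusted p = 0.0357). In both, Wt24Mchow145 was the older library nearest to the younger ones. Sirt3, the main mitochondrial deacetylase, was at 62.8, 55.6 and 57.5 CPM and at 38.3, 43.0, 44.6, 47.7 and 43.7 CPM (-0.43, SE 0.11, edgeR adjusted p = 0.0427), the single call among 25 sirtuin and NAD genes. Psmd3, a proteasome lid subunit, fell 1.44-fold, the single call among 33 proteasome genes (edgeR adjusted p = 0.0427). Both single calls stand against 0.478% of all genes called lower. Among the largest falls outside the lists were the clotting factor F5 (2.62-fold, edgeR adjusted p = 0.0204) and Slc46a3, a lysosomal transporter (2.07-fold, edgeR adjusted p = 0.0394). Of these 7 genes all held without Wt24Mchow145 or Wt24Mchow168, Ak4 and F5 without Wt24Mchow154, Ak4 without Wt24Mchow164 or Wt15Mchow225, and none without Wt15Mchow205, Wt15Mchow227 or Wt24Mchow165 (adjusted p 0.0502 to 0.259 for those lost). Under the other young arm, Ak4, Sirt3 and F5 passed, and Ndufa8 had a log2 fold change of -0.25 (edgeR adjusted p = 0.511).

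**Figure D4:**
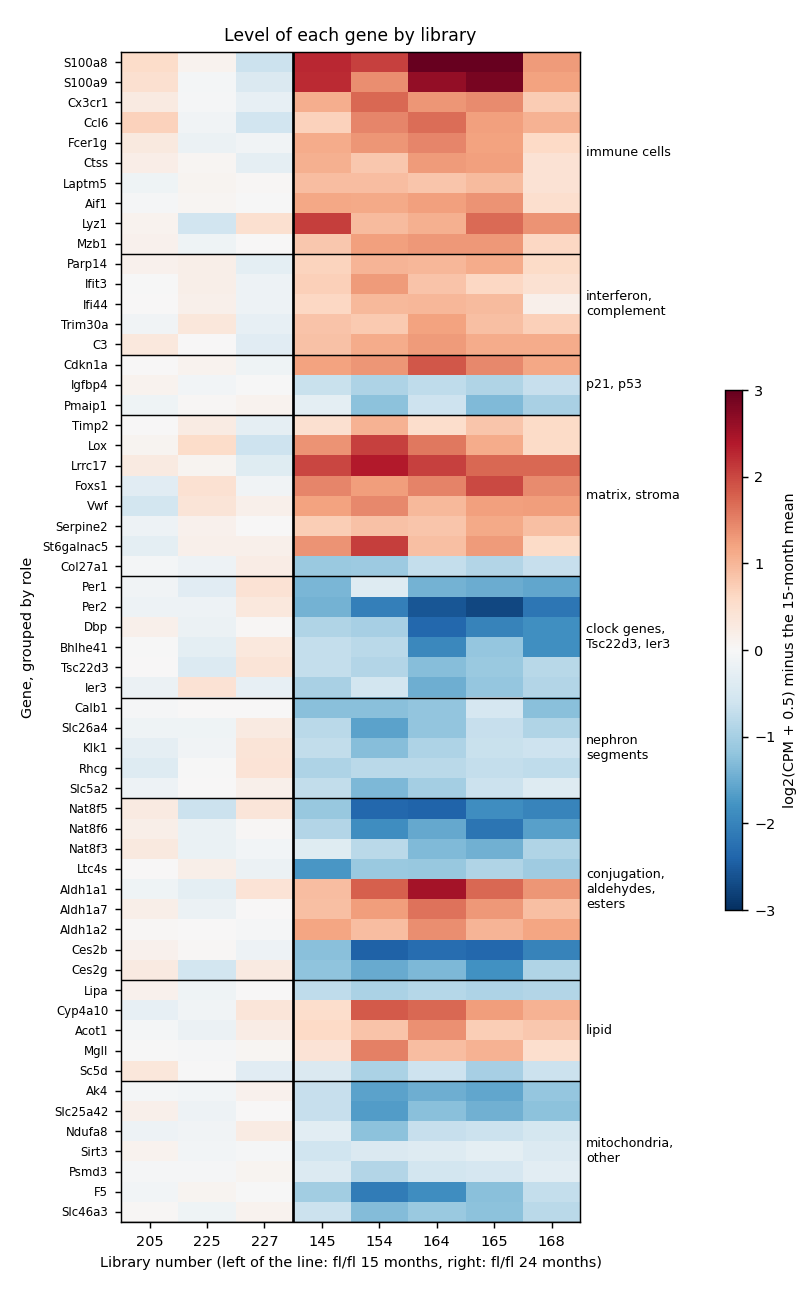
Level of 58 called genes (rows, grouped by role) in each of the 8 libraries (columns; 15 months left of the line, 24 months right), as log2(CPM + 0.5) minus the mean of the 15-month libraries. Red is higher and blue lower, with values beyond 3 drawn in the end colour; Wt24Mchow145 is often the palest of the older animals among the falls, as for Nat8f5, and Wt24Mchow168 among the immune genes.

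The remaining 26 lists had no call, with medians from -0.43 to 0.90 over 643 entries. Among them were the 76 cytosolic ribosomal protein genes (median -0.03), 22 heat shock genes (-0.16), 30 unfolded protein response genes (-0.08), 22 hypoxia-responsive genes (-0.20), 35 glutathione and antioxidant genes (-0.10) and 24 androgen-responsive genes (-0.28). Of the cells that a cortex dissection could bring along, adipocyte genes (12 tested, median 0.24) summed to 1458 to 1626 CPM at 15 months and 857 to 1600 CPM at 24 months, of which Lpl gave 65.6% over the 8 libraries. Erythrocyte genes (9 tested, median 0.12) summed to 1908 to 2043 CPM and 1412 to 2190 CPM. Podocyte genes (20 tested, median -0.09) summed to 772 to 797 CPM and 550 to 742 CPM, and Podxl, the podocyte surface sialomucin, was at 189, 203.5 and 252 CPM and at 174, 67.9, 116, 139 and 185.1 CPM (edgeR adjusted p = 0.131).

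The same age comparison in the Pt-CrAT libraries, which shares no library with this one, called more genes: 1705 (11.3%). Of the 196 genes called in the fl/fl libraries, 98 were called there and 190 had the same sign. The share of all genes with the same sign was not computed, so the 190 have nothing to be set against. Both comparisons came from the same fit with a shared spread estimate, and both rest on the 15-month labels that Crat goes against. Lipa (log2 fold change -1.07, edgeR adjusted p = 4.93e-05), Cdkn1a (1.003, edgeR adjusted p = 0.0138), Aldh1a1 (2.08, edgeR adjusted p = 0.00141), C3 (1.05, edgeR adjusted p = 0.00495), Timp2 (0.84, edgeR adjusted p = 0.00288) and Slc5a2 (-1.24, edgeR adjusted p = 0.000743) passed in both. A test of the difference between the age changes called 0 of 15064 genes in edgeR, with 2255 at an unadjusted p under 0.05 and a smallest adjusted p of 0.112. limma-voom called 0 and DESeq2 15.

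The 8 genes with the smallest p in that test and a mean of at least 5 CPM all failed the adjustment; they were Crat and 7 others. Gm15441, an antisense transcript, was higher at 24 months in fl/fl (log2 fold change 1.21, SE 0.32) and lower in Pt-CrAT (-1.31, SE 0.30), a difference of 2.52 (SE 0.44, edgeR adjusted p = 0.112). Tsc22d3 was lower in fl/fl (-0.9957, SE 0.21) and had a value of 0.34 (SE 0.22) in Pt-CrAT (edgeR adjusted p = 0.266 for the difference). Slc45a3, a sugar transporter, had values of -0.82 and 1.13 (edgeR adjusted p = 0.266). Klf2, a flow-responsive transcription factor of endothelium, had values of -0.15 and 0.93 (edgeR adjusted p = 0.201). Uap1l1 (0.03 and -1.05), Ablim3 (0.01 and -1.03) and the non-coding 2410022M11Rik (0.33 and -0.74) made up the rest. Crat itself had age changes of 0.72 (SE 0.25) and -0.93 (SE 0.24), a difference of 1.66 (SE 0.35, edgeR adjusted p = 0.266). With the other young arm the fl/fl value kept its sign for Tsc22d3 (-0.45) and Crat (0.11) and changed it for the other 6. Hspa1b, a heat shock protein below that level, had a value of -1.17 (SE 0.49) in fl/fl and 2.12 (SE 0.55) in Pt-CrAT (edgeR adjusted p = 0.266), and its fl/fl value also changed sign.

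Per1 and Per2 were among the genes whose fall was seen in the fl/fl libraries and not called in the Pt-CrAT libraries. Per1 had log2 fold changes of -1.25 and 0.07 and Per2 of -2.23 and -0.07, and the difference did not pass for either (edgeR adjusted p = 0.29 for both). Dbp was lower in both (-1.52 and -1.22). The interferon gene Ifit3 had values of 0.82 and 0.04 and Mgll of 0.94 and 0.20, again without a called difference (edgeR adjusted p = 0.29 for both). The urothelial and medullary list had a median of 0.90 in the fl/fl libraries with 0 of 17 called and a median of 2.27 in the Pt-CrAT libraries with 13 of 17 called.

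**Figure D5:**
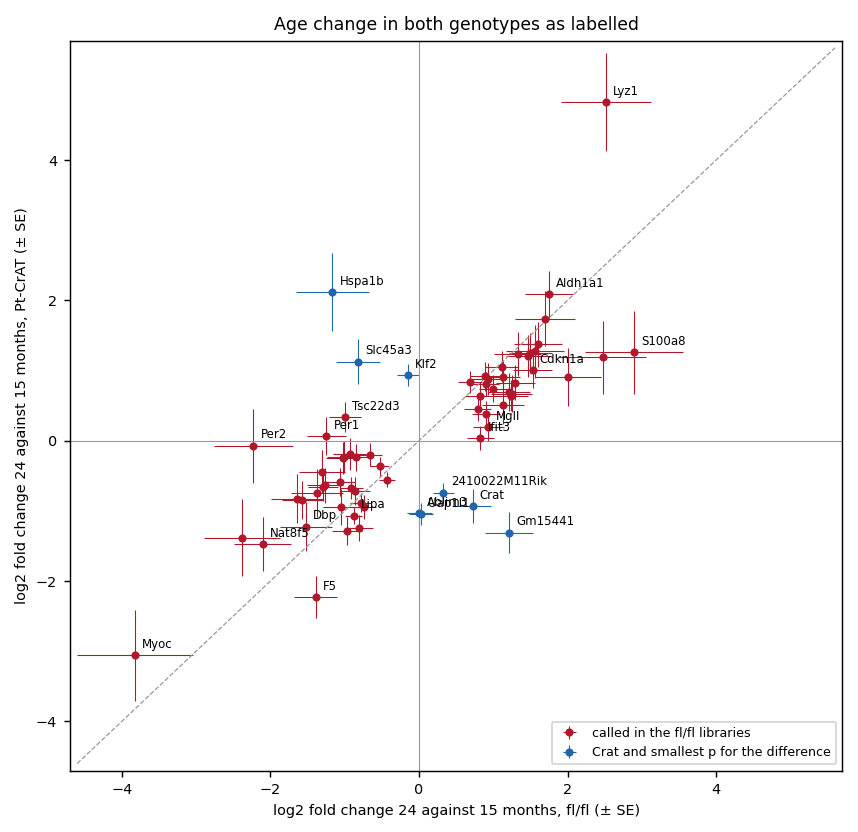
Log2 fold change from 15 to 24 months in fl/fl (horizontal axis) and Pt-CrAT libraries (vertical axis) with SE bars, for named genes called in fl/fl (red) and for Crat, Hspa1b and 6 further genes with the smallest p for the difference (blue). Most red points lie in the quadrants of equal sign, while Crat and Gm15441 lie lower right and Hspa1b, Slc45a3 and Klf2 upper left.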

How the data were processed

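Kidney cortex RNA of 22 male mice was read with a 3' tag library kit (Lexogen QuantSeq 3' FWD), per the labels' protocols. The deposited count table gives whole-number counts per gene, and a second deposited table holds these counts divided by size factors, a signal value that matched such a division of the counts to a relative difference of 5.84e-11. Another deposited file gives column totals of 12 libraries, also counts by the authors. The submitters' processing notes name GRCm38, R 3.4.3 and DESeq2 1.18.1; no label or header names the aligner or counting method. All 16556 genes in the table had a row total of at least 66, and 16514 matched GENCODE M21 symbols.

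From the counts, edgeR 4.0.16 (R 4.3.3; TMM, robust quasi-likelihood fit of 6 groups over 22 libraries, 16 residual degrees of freedom) tested 15064 genes that passed its filter on low counts, with Benjamini-Hochberg adjustment at 0.05. The biological coefficient of variation was 20.54%. SEs are the log2 fold change divided by the root of F. The difference of the age changes was a contrast of the same fit. At 12529663 to 14627262 counts per library, values under about 1 CPM rest on few reads. Alternatives were DESeq2 1.42.0, limma-voom 3.58.1, other scalings, filters and sample sets, each library left out, and the 15-month libraries labelled Pt-CrAT as the young arm. Promoter windows came from RefSeq (GRCm38.p6); Per2 and Parp14 had no entry. Figures used matplotlib 3.10.9.

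The members and lists were chosen with earlier results of these data known. Named genes were, by rule, the 12 largest called rises and falls with a mean of at least 5 CPM, up to 4 called genes of each list (2 uncalled where none was called), 8 genes for the difference, and, whatever their value, Crat, Kl, Havcr1, Lcn2, Cdkn1a, Cdkn2a, Slc34a1, Lrp2, Kap, Umod, Col1a1, Col3a1, Igkc, Jchain, C3 and C4b; 1 further gene of that set is not reported here. Genes named beyond that rule were chosen after their values were seen: Lipa, Nat8f3, Nat8f1, Nat8, Aldh1a2, Ces2b, Ces2g, Laptm5, Aif1, Lyz1, Lyz2, Adgre1, Cd68, Csf1r, Ighg2b, Ighg2c, Irf9, Ifitm3, Oas2, Isg15, Serpine2, Col27a1, Myoc, Npas2, Arntl, Nr1d1, Slc12a3 and the segment markers.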

Additional observations from a re-analysis of the deposited data

Results flagged for a closer look

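Of the 137 genes examined, those named by rule and those added, in 12 genes 1 of the 5 libraries of 24 months stood apart from the other 4, by a gap beyond Dixon's 95% critical value for 5 samples; chance gives this in about 1 of 20 groups. Wt24Mchow154 was high for the clock repressor Per1 (20.3 CPM, others 8.719 to 9.99), the smooth muscle calponin Cnn1 (3.266 CPM, others 0.9802 to 1.397), the lipogenic regulator Thrsp (38.34 CPM, others 10.48 to 18.28) and the endoplasmic reticulum stress gene Herpud1 (1161 CPM, others 606.4 to 712.4). Wt24Mchow164 was high for the thioesterase Acot1 (185.5 CPM, others 109.5 to 131.1), the tight junction protein Cldn16 of the thick ascending limb (6.786 CPM, others 4.396 to 4.821) and the immunoglobulin genes Ighg2b (33.7 CPM, others 3.702 to 11.53) and Ighg2c (41.47 CPM, others 3.779 to 8.719). Wt24Mchow165 was high for Foxs1 (17.27 CPM, others 10.34 to 12.22) and Calb1 (209.4 CPM, others 122.8 to 129.5). Wt24Mchow145 was high for Ces2b (2.236 CPM, others 0.6998 to 1.125), and Wt24Mchow168 was low for Laptm5 (45.42 CPM, others 60.55 to 64.78).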

How the results depend on the processing

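The number of genes called depended on single libraries, from 3 to 756 when each was left out in turn, against 196 with all. It was 731 with DESeq2, 338 with library totals as the only scaling and 490 with the 16 chow libraries, and within 1.5 times of 196 with limma-voom (142), DESeq2 size factors (206), no filter (192), a stricter filter (224), no robust moderation (195), the 8 libraries alone (167, of which 104 were among the 196) and the other young arm (223, of which 64 were). The test of the difference called 15 with DESeq2 and 0 in every other alternative run. The Crat difference was 20.25 to 37.27 CPM with each library left out and 5.581 CPM with the other young arm. Of 59 named calls none changed direction, and 59 passed with DESeq2, 49 with limma-voom, 40 with the 8 libraries alone (1 of the 59 was not tested there), 22 with the other young arm, 3 without Wt15Mchow205 and 3 without Wt15Mchow227.

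Among genes that did not pass, the other young arm turned the log2 fold change of Hspa1b (0.60), Gm15441 (-0.41), 2410022M11Rik (-0.39), Klf2 (0.19), Uap1l1 (-0.43), Ablim3 (-0.63), Slc45a3 (0.24), Kap (-0.20) and C4b (-0.00483). With 1 library left out, Uap1l1 ranged from -0.06414 to 0.09261 (below 0 without Wt15Mchow225 or Wt24Mchow154), Ablim3 from -0.05772 to 0.06822 (below 0 without Wt15Mchow205, Wt15Mchow227, Wt24Mchow154, Wt24Mchow164 or Wt24Mchow168), Kap from -0.08041 to 0.1274 (below 0 without Wt15Mchow227, Wt24Mchow145 or Wt24Mchow154) and Col3a1 from -0.04005 to 0.3903 (below 0 without Wt24Mchow145). Ablim3 was at -0.005445 with limma-voom and -0.001714 with the 8 libraries alone. The cause of these changes was not tested. No paired analysis was possible because no replicate number is shared between the groups.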
